A study of Mus musculus with 6 samples.

Results

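The genes described are the nuclear encoded subunits of oxidative phosphorylation, followed through mouse CD4 T cells with and without the transcriptional co-activator YAP. They were chosen by name alone, as symbols beginning Ndufa, Ndufb, Ndufc, Ndufs or Ndufv with a number, the 4 Sdh genes, the Uqcr genes and Cyc1, the Cox4 to Cox8 genes, and the Atp5 genes, with pseudogene symbols left out. This gave 85 of the 24011 genes in the table: 37 of complex I, 4 of complex II, 9 of complex III, 18 of complex IV and 17 of complex V. Some genes sit under a name that is not their role. Atp5s and Atp5sl are old symbols of genes that are not ATP synthase subunits, Ndufa4 is placed in complex I by name but is a subunit of cytochrome c oxidase, and the 13 subunits encoded in mitochondrial DNA were not analysed here.

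Total RNA was sequenced from 6 groups of 1 library each, all from C57BL/6 mice, with cells sorted from lymph nodes and spleens. The groups were stimulated natural regulatory T cells (nTregs, CD4+ CD62L+/- CD25 high) of YAP cKO and of WT mice, fresh nTregs of YAP cKO and of WT mice, and naive CD4 T cells (CD4+ CD62L+ CD25-) of YAP cKO and of WT mice. In YAP cKO mice a YAP flox/flox allele is recombined by CD4-Cre, which acts in all T cells that have passed through CD4 expression, so the naive cells and the nTregs both carry the deletion; for the WT mice neither is stated. Stimulated nTregs were cultured on plates coated with anti-CD3 (2 µg/ml) in medium that held anti-CD28 (2 µg/ml) and IL-2 (100 U/ml). One protocol field gives 24 h of stimulation and another 48 h, and the number of mice behind a library is not stated. Levels are in FPKM, a fragment count scaled for transcript length and library depth, so that genes can be compared within a library.

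The respiratory chain lies in the inner mitochondrial membrane. Complex I oxidises NADH and complex II oxidises succinate, both passing electrons to ubiquinone; complex III hands them to cytochrome c and complex IV to oxygen, while complexes I, III and IV pump protons that drive ATP synthesis by complex V. In T cells, activation through the antigen receptor is known to raise mitochondrial mass and respiration together with glycolysis, and regulatory T cells are known to depend on respiration.

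The libraries carried the markers of their labels. The 4 Treg markers Foxp3, Il2ra, Ikzf2 and Ctla4 summed to between 753 and 969 FPKM in the 4 nTreg libraries, against 42.7 and 48.4 FPKM in the naive libraries. Markers of B cells (5 genes) summed to 9.57 and 10.1 FPKM in stimulated nTregs, 38.1 and 43.6 FPKM in fresh nTregs and 6.01 and 5.87 FPKM in naive cells, mostly Cd74 and Cd79b, with Ms4a1 between 0 and 0.165 FPKM; their part in the differences below was not tested. In every library, the summed markers of CD8 T cells, myeloid cells, NK cells, erythroid cells and platelets each stayed at or under 8.90 FPKM. Yap1, the deleted gene, had 0.235 FPKM in YAP cKO and 0.169 FPKM in WT stimulated nTregs and is listed at 0 in the other 4 libraries, so it does not check the genotype labels. The value columns name one genotype only by the abbreviation YKP, read as YAP cKO because the other is named WT, and every direction between genotypes rests on that reading.

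Most subunits were abundant. Of the 85 genes, 78 had at least 1 FPKM in at least 2 libraries and were tested, namely 36, 4, 9, 12 and 17 in complexes I to V. The 85 genes summed to 10239.7 FPKM in YAP cKO and 8407 FPKM in WT stimulated nTregs, 9427 FPKM in YAP cKO and 9042 FPKM in WT fresh nTregs, and 9322 FPKM in YAP cKO and 9472 FPKM in WT naive cells. The YAP cKO stimulated library was the highest of the 6 and the WT stimulated library the lowest. A fall in such a sum in bulk RNA cannot tell fewer cells of a type from less RNA per cell.

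The share of the whole FPKM sum ran differently, at 1.72% and 1.57% in YAP cKO and WT stimulated nTregs, 1.12% and 1.08% in YAP cKO and WT fresh nTregs, and 0.968% and 0.978% in YAP cKO and WT naive cells. Small nuclear, nucleolar and micro RNA and antigen receptor segments are part of the same sum. Their share was lowest in stimulated nTregs, where that of the members was highest. They held 17.8% and 16.1% of the FPKM sum in YAP cKO and WT stimulated nTregs. In fresh nTregs they held 36.2% and 36.6%, and in naive cells 36.4% and 36.2%, YAP cKO before WT. Without those short features the members' share was 2.09% and 1.87% in stimulated nTregs, 1.75% and 1.70% in fresh nTregs and 1.52% and 1.53% in naive cells, YAP cKO before WT in each pair. On both scales the 2 stimulated libraries were highest and the 2 naive libraries lowest.

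Complex V was the largest contributor in every library, with 33.1% to 34.3% of the members' FPKM, and complex II the smallest, with 2.43% to 2.66%. Over the 6 libraries the highest mean level was that of Uqcrh, the hinge protein of complex III next to cytochrome c1, at 470.5 FPKM. Cox7a2l, which promotes association of complexes III and IV and of which C57BL/6 mice are known to carry a shortened allele, averaged 356 FPKM. Atp5b, the catalytic beta subunit of the F1 head of ATP synthase, averaged 341 FPKM. The plot of levels by library shows how narrow the changes were next to the spread between genes.

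**Figure D1:**
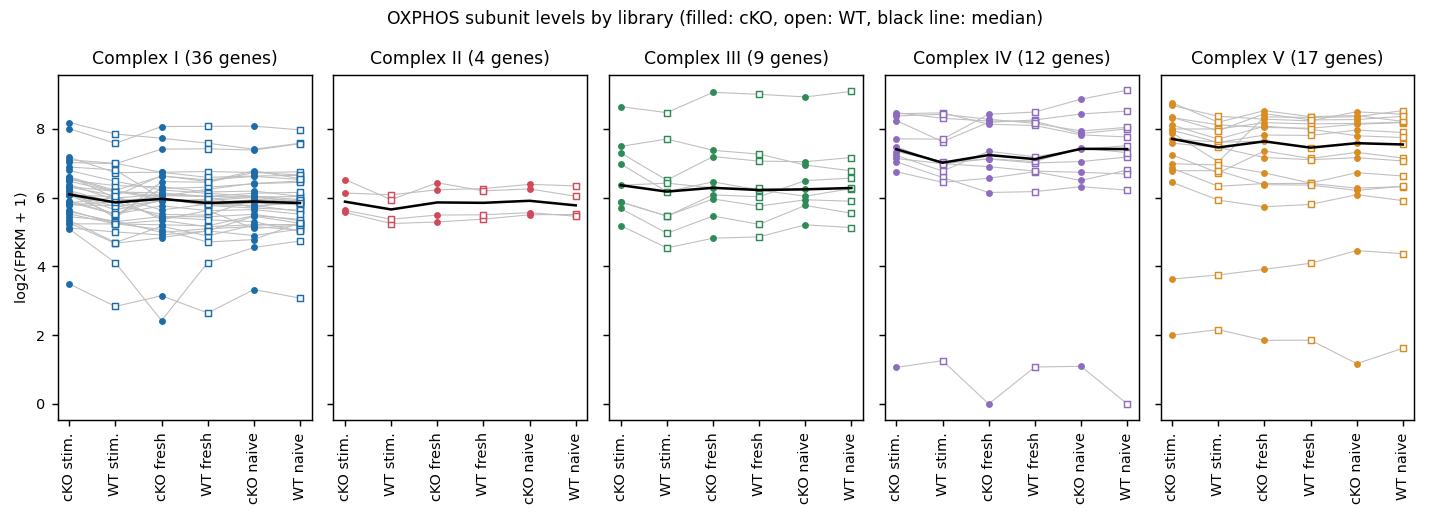
Level of each of the 78 tested members as log2(FPKM + 1), by complex and library, with grey lines joining a gene across libraries and a black line at the median. Medians over all members run from 71.4 FPKM in WT stimulated nTregs to 92.4 FPKM in YAP cKO stimulated nTregs, while single genes span from 0 FPKM (Cox7a1 in 2 libraries) to 556 FPKM (Cox7a2l in WT naive cells).

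Where a subunit exists as tissue isoforms, the broadly expressed form held nearly all of the FPKM. Cox4i1, Cox6a1, Cox6b1, Cox7b, Cox8a and Ndufa4 each held between 99.4% and 100% of the FPKM of their family in every library, and Cox4i2, Cox6a2, Cox6b2, Cox8b and Ndufa4l2 stayed at or under 1.65 FPKM. Cox7b2 and Cox8c are listed at 0 in all 6 libraries. Cox7a1, the form of heart and skeletal muscle, had between 1.09 and 1.39 FPKM in 4 libraries and is listed at 0 in YAP cKO fresh nTregs and WT naive cells; on its short transcript the values above 0 stand for about 4 fragments each, and nothing is read from its differences. In the Cox7a family Cox7a2 held 16.1% to 33.8% and Cox7a2l the rest but for 0.47% at most. The c-ring of ATP synthase was another exception, with all 3 genes expressed: Atp5g2 held 51.1% to 54.2% of their FPKM, Atp5g3 29.2% to 37.0% and Atp5g1 11.9% to 17.8%.

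One complex I gene, Ndufs5, a small subunit on the intermembrane side, has a near copy that bears on its values. Its processed pseudogene Ndufs5-ps, left out of the members by name and deposited under the symbol BC002163, lies on the plus strand of chromosome 16. The pseudogene transcript of 319 bases aligned to bases 93 to 411 of the 525-base Ndufs5 transcript with 2 mismatches and no gap, an identity of 99.4%, all inside the coding stretch of bases 93 to 413. The first 150 of those bases, from the GENCODE transcripts on GRCm38, are shown because they hold both mismatches, which are in capitals.
Ndufs5 (spliced, minus strand of chr4:123712710-123718202): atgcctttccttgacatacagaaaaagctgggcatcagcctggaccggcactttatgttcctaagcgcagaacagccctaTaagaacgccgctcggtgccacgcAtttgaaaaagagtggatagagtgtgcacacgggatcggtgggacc
Ndufs5-ps (chr16:42955631-42955780): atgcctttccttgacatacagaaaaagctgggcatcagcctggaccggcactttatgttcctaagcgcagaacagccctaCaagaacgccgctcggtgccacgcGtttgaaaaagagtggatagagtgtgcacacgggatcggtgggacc
Beyond these positions the aligned transcripts do not differ, and the longest run without a mismatch was 214 bases. How fragments that match both were shared out is not given in the sources used here.

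Ndufs5 had 33.0 FPKM in YAP cKO and 16.2 FPKM in WT stimulated nTregs, 4.37 FPKM in YAP cKO and 16.3 FPKM in WT fresh nTregs, and 22.4 FPKM in YAP cKO and 25.7 FPKM in WT naive cells. Ndufs5-ps had 23.7 FPKM in YAP cKO and 1.23 FPKM in WT stimulated nTregs, 11.9 FPKM in YAP cKO and 0.647 FPKM in WT fresh nTregs, and 18.1 FPKM in YAP cKO and 0.791 FPKM in WT naive cells. The pseudogene was thus high in the 3 YAP cKO libraries and low in the 3 WT libraries, with no overlap, while its parent followed no such order. Ndufs5-ps held 41.8%, 73.2% and 44.8% of the pair's FPKM in YAP cKO stimulated nTregs, fresh nTregs and naive cells, against 7.08%, 3.83% and 2.99% in the WT libraries of the same populations. For the pair summed, the log2(FPKM + 1) difference of YAP cKO over WT was 1.64 in stimulated nTregs, -0.05 in fresh nTregs and 0.60 in naive cells, against 0.98, -1.68 and -0.19 for Ndufs5 alone. The values of Ndufs5 are therefore uncertain, and whether the genotype moves the gene or the copy cannot be told apart here.

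As deposited, stimulated and fresh nTregs differed in single subunits in both directions. A linear model (limma) with terms for population and genotype was fitted to log2(FPKM + 1) of 11224 genes, and a difference with a Benjamini-Hochberg adjusted p under 0.05 is called; with 1 library per group, its error is the spread of a difference between genotypes or populations, not between mice. Stimulated over fresh nTregs, 16 of 78 members rose (20.5%, where 22.5% of all genes tested rose) and 9 fell (11.5%, where 27.3% of all genes fell). The rises were 9 in complex I, 0 in complex II, 0 in complex III, 3 in complex IV and 4 in complex V, and the falls were 4, 0, 2, 1 and 2. The members' median difference was 0.11 on the log2 scale, against -0.05 over all genes tested. Both stimulated libraries lay above both fresh ones for 28 members (35.9%, against 33.8% of all genes) and below both for 12 (15.4%, against 40.1%).

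**Figure D2:**
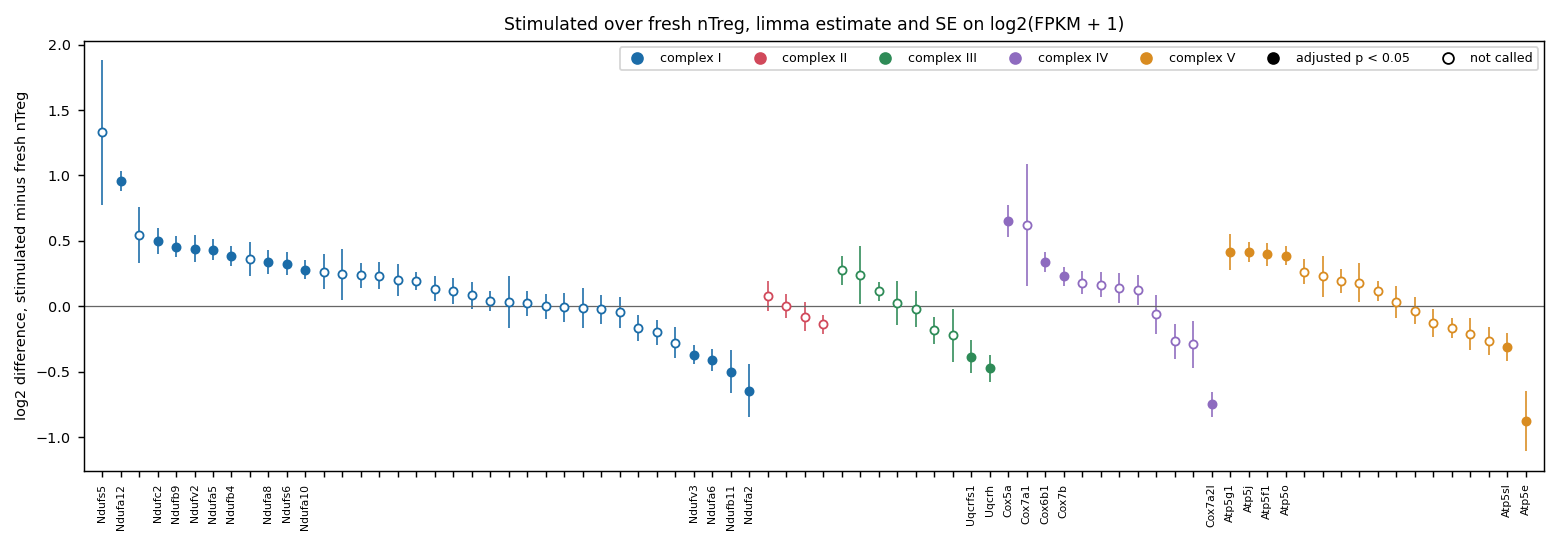
Difference of stimulated over fresh nTregs for each tested member on the scale as deposited (limma estimate with its SE, log2(FPKM + 1)), grouped by complex and sorted within it, with filled points for adjusted p under 0.05; names are given for those and for Ndufs5 and Cox7a1. Ndufa12 at 0.96 is the highest called member and Atp5e at -0.88 the lowest; the wide bars belong to Ndufs5 and Cox7a1.

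In the NADH-oxidising peripheral arm of complex I, the largest called change was that of Ndufa12, a supernumerary subunit added late in assembly of that arm. Ndufa12 had 117 FPKM in YAP cKO and 111 FPKM in WT stimulated nTregs, against 62.2 FPKM in YAP cKO and 54.3 FPKM in WT fresh nTregs. Both stimulated libraries lay far above both fresh ones in either genotype. The difference was 0.96 ± 0.07 (log2, SE; limma adjusted p = 0.00035), and of all 33 calls on members in the population comparisons it was the only one that remained under every alternative setting and every left-out library.

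Among the catalytic core subunits of complex I, Ndufv2, which carries an iron-sulfur cluster beside the NADH site, rose. It had 54.4 FPKM in YAP cKO and 57.6 FPKM in WT stimulated nTregs, against 42.2 FPKM in YAP cKO and 39.8 FPKM in WT fresh nTregs, a difference of 0.44 ± 0.10 (log2, SE; limma adjusted p = 0.0158). Of the other core subunits described here, none was called. The iron-sulfur subunits Ndufs1, Ndufs7 and Ndufs8 differed by 0.04, 0.08 and 0.02 on the log2 scale, and Ndufs3 by -0.01. For Ndufv1, which binds flavin and NADH, the mean difference of 0.03 ± 0.20 (log2, SE) joined 37.4 FPKM in YAP cKO and 24.4 FPKM in WT stimulated nTregs with 27.5 FPKM in YAP cKO and 31.7 FPKM in WT fresh nTregs, so the 2 genotypes lay on opposite sides.

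The other complex I rises were supernumerary subunits. Ndufc2, of the membrane arm, rose by 0.50 ± 0.10 (limma adjusted p = 0.00795), with 93.7 and 71.1 FPKM in YAP cKO and WT stimulated nTregs against 61.5 and 53.5 FPKM in YAP cKO and WT fresh nTregs. Ndufb9, a small LYR-motif subunit at the tip of the membrane arm, rose by 0.46 ± 0.08 (limma adjusted p = 0.0062), with 109 and 87.7 FPKM against 73.6 and 68.8 FPKM in the same order. Ndufa5, of the peripheral arm, rose by 0.43 ± 0.08 (limma adjusted p = 0.00658). Ndufb4, Ndufa8, Ndufs6 and Ndufa10 rose by 0.39, 0.34, 0.33 and 0.28 on the log2 scale. In each of these 7 genes both stimulated libraries lay above both fresh libraries. Ndufc1, a small membrane-arm subunit, differed by 0.55 ± 0.22 (limma adjusted p = 0.0805), and Ndufs5 by 1.33 ± 0.55 (limma adjusted p = 0.092), neither with a call.

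The 4 complex I falls were supernumerary too. Ndufa2, a thioredoxin-fold subunit of the peripheral arm, had 73.2 FPKM in YAP cKO and 41.4 FPKM in WT stimulated nTregs, against 87.2 FPKM in YAP cKO and 86.1 FPKM in WT fresh nTregs. Its mean difference was -0.64 ± 0.20 (log2, SE; limma adjusted p = 0.0406), with the WT stimulated library well below the other 3. Ndufb11, a membrane-arm subunit encoded on the X chromosome, fell by 0.50 ± 0.16 (limma adjusted p = 0.045), Ndufa6 by 0.41 ± 0.09 (limma adjusted p = 0.00974) and Ndufv3 by 0.37 ± 0.07 (limma adjusted p = 0.00756), each on the log2 scale with its SE.

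None of the 4 subunits of complex II, the succinate dehydrogenase that also serves the citric acid cycle, was called. The flavoprotein Sdha had 69.1 FPKM in YAP cKO and 66.7 FPKM in WT stimulated nTregs, against 73.8 FPKM in YAP cKO and 75.6 FPKM in WT fresh nTregs. Its difference of -0.14 ± 0.07 (log2, SE; limma adjusted p = 0.166) was the largest of the 4, ahead of the iron-sulfur subunit Sdhb at -0.08 and the membrane anchors Sdhc at 0.08 and Sdhd at 0.00.

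In complex III, 2 genes fell and 0 rose on the scale as deposited; with equal FPKM sums per library both differences were above 0 (0.18 for Uqcrfs1 and 0.10 for Uqcrh). Uqcrfs1 is the Rieske iron-sulfur protein that takes electrons from ubiquinol. It had 57.5 FPKM in YAP cKO and 43.0 FPKM in WT stimulated nTregs, against 66.5 FPKM in YAP cKO and 64.0 FPKM in WT fresh nTregs, a difference of -0.38 ± 0.12 (log2, SE; limma adjusted p = 0.0436). Uqcrh had 399 FPKM in YAP cKO and 353 FPKM in WT stimulated nTregs, against 532 FPKM in YAP cKO and 512 FPKM in WT fresh nTregs, a difference of -0.47 ± 0.10 (log2, SE; limma adjusted p = 0.0123). For both genes the stimulated libraries lay below the fresh ones without overlap. Cyc1, the cytochrome c1 that passes electrons on, differed by 0.02 ± 0.17 (log2, SE), and Uqcrb, the ubiquinone-binding subunit, by 0.28 ± 0.11 (log2, SE; limma adjusted p = 0.0817). Uqcr11, a small subunit beside the Rieske protein, and the core protein Uqcrc2 differed by 0.24 ± 0.22 and 0.12 ± 0.07 without a call.

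In complex IV the strongest rise was that of Cox5a, a matrix-side subunit. Cox5a had 130.2 FPKM in YAP cKO and 95.0 FPKM in WT stimulated nTregs, against 69.8 FPKM in YAP cKO and 71.2 FPKM in WT fresh nTregs, a difference of 0.65 ± 0.12 (log2, SE; limma adjusted p = 0.00697). Cox6b1, which faces the intermembrane space where cytochrome c docks, rose by 0.34 ± 0.08 and Cox7b by 0.23 ± 0.07 (limma adjusted p = 0.0131 and 0.0418). Cox7a2l fell, with 208 FPKM in YAP cKO and 207 FPKM in WT stimulated nTregs against 341 FPKM in YAP cKO and 358 FPKM in WT fresh nTregs. Its difference was -0.75 ± 0.09 (log2, SE; limma adjusted p = 0.0016), and the libraries of a group lay close together. Cox4i1, a subunit that contacts the catalytic core, was not called, with 301 FPKM in YAP cKO but 196 FPKM in WT stimulated nTregs against 290.2 FPKM in YAP cKO and 305 FPKM in WT fresh nTregs (-0.29 ± 0.18, limma adjusted p = 0.221).

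In complex V the peripheral stalk, which holds the F1 head against rotation, had 3 of the 4 rises. Atp5o, the OSCP subunit at the top of the stalk, had 191 FPKM in YAP cKO and 175 FPKM in WT stimulated nTregs, against 142 FPKM in YAP cKO and 136 FPKM in WT fresh nTregs, a difference of 0.39 ± 0.07 (log2, SE; limma adjusted p = 0.00639). Atp5j (coupling factor F6) rose by 0.41 ± 0.08 and Atp5f1 (subunit b) by 0.40 ± 0.09 (limma adjusted p = 0.00629 and 0.0129), while the remaining stalk subunit Atp5h differed by -0.17 ± 0.07 (limma adjusted p = 0.115). Of the c-ring genes, Atp5g1 rose by 0.42 ± 0.14 (limma adjusted p = 0.0481), whereas Atp5g2 and Atp5g3 differed by -0.03 and -0.27 on the log2 scale without a call.

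The central stalk gene Atp5e, subunit epsilon, fell the most of all members. It had 234 FPKM in YAP cKO and 131 FPKM in WT stimulated nTregs, against 324 FPKM in YAP cKO and 321 FPKM in WT fresh nTregs, a difference of -0.88 ± 0.23 (log2, SE; limma adjusted p = 0.0229). Both stimulated libraries were below both fresh ones, and the WT library much more so. The catalytic F1 subunits Atp5a1 and Atp5b differed by 0.19 ± 0.09 and 0.27 ± 0.10 (log2, SE; limma adjusted p = 0.13 and 0.0614). Atp5sl, which is not a subunit, fell by 0.31 on the log2 scale (limma adjusted p = 0.0494).

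These counts depended on the scale and on single libraries. With equal FPKM sums per library, 67 members rose and 0 fell, where 59.2% of all genes rose and 8.99% fell, and the median difference was 0.68 for members and 0.47 for all genes. With the short features left out of that sum, 37 rose and 3 fell, where 32.5% of all genes rose and 18.4% fell, and the medians were 0.30 and 0.12. With equal FPKM sums the differences of Ndufa6 (0.16), Ndufb11 (0.07), Ndufv3 (0.20) and Atp5sl (0.23) were above 0 as well. Relative to the median of all genes the members stood 0.16 higher as deposited, and 0.02 to 0.21 higher over the alternative settings that keep all libraries. Leaving out the WT stimulated library gave 34 rises and 6 falls (all genes: 20.6% and 25.1%), and leaving out the YAP cKO stimulated library gave 13 and 23 (all genes: 18.4% and 27.8%). Leaving out YAP cKO fresh gave 2 and 2 (all genes: 12.1% and 15.1%), and leaving out WT fresh 6 and 1 (all genes: 12.3% and 13.9%). Without the YAP cKO stimulated library the members' median of -0.08 equalled that of all genes, -0.08. Proliferation genes moved with the same contrast, 6 of 7 called higher with a median difference of 1.79 on the log2 scale, and their part in it was not tested.

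Promoter letters of the members were read beside these results, because members that moved in opposite directions share motifs. RefSeq promoters (GRCm38.p6, 250 bases before to 50 after a start, 75 promoters of 69 members) were searched on both strands. The NRF1 core (GCGCA, any base, GCGC), bound by a regulator of nuclear genes for mitochondria, was in 18 of 75 promoters (24.0%, against 10.5% of 11272 promoters of the other tested genes and 4.60% of all 32851). The ETS site CCGGAAG was in 16 (21.3%, against 18.9% and 8.86%), and the YY1 site AAGATGGCG in 9 (12.0%, against 3.21% and 1.4%). The estrogen-related receptor (ERR) site TCAAGGTCA was in 2 (2.67%, against 0.266% and 0.423%), the TATA box TATAAA in 8 (10.7%, against 7.08% and 13.6%), and the E-box CACGTG, which Myc can bind, in 9 (12.0%, against 10.3% and 7.15%). None of these motifs holds another within its letters, each was counted on its own, and a match describes the window only.

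For 8 of the members called on stimulation, an NRF1 or ETS match that lies wholly before a RefSeq start is shown. Each window has 30 bases, with that match in capitals, and is read along the gene's strand, which is minus for all 8. For Atp5j the start is an alternative one, and the window lies inside the gene (chr16:84827871-84835857). The first 2 fell and the other 6 rose.
Atp5e (chr2:174464186-174464215): ctacggccacagCTTCCGGtagccgctcgg
Uqcrh (chr4:116075071-116075100): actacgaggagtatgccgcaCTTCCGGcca
Ndufa5 (chr6:24527697-24527726): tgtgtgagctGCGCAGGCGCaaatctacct
Atp5j (chr16:84835020-84835049): tagctgagggacCCGGAAGcacttaccctc
Ndufb4 (chr16:37654371-37654400): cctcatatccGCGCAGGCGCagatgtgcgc
Ndufa8 (chr2:36049349-36049378): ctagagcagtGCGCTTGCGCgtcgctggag
Cox6b1 (chr7:30626125-30626154): ctcctctcgcagCTTCCGGccagtcggaat
Ndufs6 (chr13:73328483-73328512): ccgccgactgctgtGCGCCTGCGCcggcac
The ETS letters stood before a start of genes of either direction (Atp5e and Uqcrh lower, Atp5j and Cox6b1 higher). The NRF1 letters in these windows stood before 4 complex I genes that rose. Ndufa6, a complex I gene that fell, also has an NRF1 match, which lies after its start and is not shown.

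Between fresh nTregs and naive CD4 T cells few of these genes were called, though the number depended on the libraries in the fit. In the same limma fit 3 of 78 members were higher in fresh nTregs (3.85%, where 16.5% of all genes were higher) and 5 were lower (6.41%, where 14.7% of all genes were lower). The median difference was -0.01 for members and -0.02 for all genes, on the log2 scale. Both fresh libraries lay above both naive ones for 18 members (23.1%, against 33.2% of all genes) and below both for 25 (32.1%, against 37.7%). B cell markers were higher in the fresh nTreg libraries, as given above.

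The 3 genes higher in fresh nTregs were the ubiquinone-binding Uqcrb, the complex I subunit Ndufa5 and Cox6b1. Uqcrb had 165 FPKM in YAP cKO and 152 FPKM in WT fresh nTregs, against 122 FPKM in YAP cKO and 109 FPKM in WT naive cells, a difference of 0.46 ± 0.11 (log2, SE; limma adjusted p = 0.0256). Ndufa5 had 39.9 and 48.2 FPKM in YAP cKO and WT fresh nTregs against 33.3 and 35.8 FPKM in YAP cKO and WT naive cells (0.34 ± 0.08, limma adjusted p = 0.0245). Cox6b1 had 279 and 273 FPKM in fresh nTregs against 225 and 216 FPKM in naive cells, YAP cKO before WT (0.32 ± 0.08, limma adjusted p = 0.0239). In all 3 genes the fresh libraries lay above the naive ones, and the stimulated libraries lay higher still, Uqcrb with 178 FPKM in YAP cKO and 207 FPKM in WT stimulated nTregs.

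Of the 5 lower genes, Cox7a2l differed most, with 341 FPKM in YAP cKO and 358 FPKM in WT fresh nTregs against 464 FPKM in YAP cKO and 556 FPKM in WT naive cells (-0.54 ± 0.09, limma adjusted p = 0.00879). The Rieske protein Uqcrfs1 had 66.5 and 64.0 FPKM in YAP cKO and WT fresh nTregs against 89.1 and 93.6 FPKM in YAP cKO and WT naive cells (-0.48 ± 0.12, limma adjusted p = 0.0322). Ndufs7, a core iron-sulfur subunit of complex I near the quinone site, had 29.1 and 31.7 FPKM in fresh nTregs against 42.9 and 37.2 FPKM in naive cells in the same order (-0.38 ± 0.10, limma adjusted p = 0.034). Ndufa10 and Atp5sl both differed by -0.41 on the log2 scale (limma adjusted p = 0.00941 and 0.0302). As deposited, Cox7a2l and Uqcrfs1 therefore had their highest levels in naive cells and their lowest in stimulated nTregs. With equal FPKM sums Uqcrfs1 was not lower in stimulated than in fresh nTregs, as given above. The 2 comparisons share the fresh libraries.

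Apart from Uqcrfs1 and Ndufs7, the core subunits described here had no call between fresh nTregs and naive cells. Sdha and Sdhb differed by -0.12 and 0.17, Cyc1 by -0.33, Atp5a1 by -0.13 and Atp5b by -0.20 on the log2 scale, with SE of 0.07, 0.11, 0.17, 0.09 and 0.10. In complex I, Ndufv1 differed by -0.06, Ndufv2 by 0.23, Ndufs1 by -0.23, Ndufs3 by -0.06 and Ndufs8 by 0.11. The membrane anchors Sdhc and Sdhd differed by -0.17 and -0.01. Other subunits without a call included Cox6c (0.29 ± 0.10, limma adjusted p = 0.0647), Atp5j2 (0.26 ± 0.11) and Cox7c (0.23 ± 0.09). Ndufb9 (0.23 ± 0.08), Uqcr11 (0.19 ± 0.22) and Atp5k (0.14 ± 0.12) had none either. Below 0, Cox6a1 (-0.28 ± 0.12) and Atp5g1 (-0.23 ± 0.14) also had no call. Each of these subunits was among the highest or lowest of its complex. Atp5s, which is not a subunit, differed by 0.46 ± 0.16 (limma adjusted p = 0.0741), and Ndufs5 by -1.38 ± 0.55 (limma adjusted p = 0.109). With equal FPKM sums, with or without the short features, 18 members were higher and 1 lower, where 24.3% and 26.3% of all genes were higher and 5.86% and 6.32% lower, and the members' median was 0.18 against 0.15 and 0.16 for all genes. In a fit of the 2 populations alone 10 members were higher and 15 lower, where 20.9% of all genes were higher and 23.1% lower. Leaving out 1 fresh or naive library moved the members' median. Without YAP cKO or WT fresh nTregs it was 0.04 and -0.07, against -0.01 and -0.04 for all genes. Without YAP cKO or WT naive cells it was -0.09 and 0.06, against -0.03 and -0.02 for all genes.

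Between genotypes no member was called. Over the 3 populations together, YAP cKO over WT, 0 of 78 members were higher and 0 lower at an adjusted p under 0.05 in limma, where 0.258% of all genes were higher and 0.116% lower. At an unadjusted limma p under 0.05 in either direction there were 16 members (20.5%) and 1346 of all genes (12.0%). Of these, 15 members and 858 genes were higher. The median difference was 0.14 for members and 0.01 for all genes. A positive one was found in 65 of 78 members and in 6041 of all 11224 genes. Without either stimulated library the members' median was 0.039, against -0.00084 and -0.00064 for all genes. The lowest limma adjusted p, 0.208, belonged to Ndufa11, a membrane-arm subunit of complex I of about 23 to 50 fragments a library, with 10.2 FPKM in YAP cKO and 6.13 FPKM in WT stimulated nTregs, 7.86 and 5.26 FPKM in YAP cKO and WT fresh nTregs, and 9.02 and 7.43 FPKM in YAP cKO and WT naive cells (0.47 ± 0.11).

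YAP cKO lay above WT in all 3 populations for 26 of 78 members (33.3%, against 19.6% of all genes), and below it in all 3 for Atp5s and Ndufa5 (2.56%, against 16.7%). Among the 26 were Sdhb, with 91.0 FPKM in YAP cKO and 60.3 FPKM in WT stimulated nTregs, 85.2 and 72.2 FPKM in YAP cKO and WT fresh nTregs, and 75.1 and 64.7 FPKM in YAP cKO and WT naive cells (0.34 ± 0.09, limma adjusted p = 0.257). Uqcrq, a small complex III subunit, differed by 0.40 ± 0.11 (limma adjusted p = 0.277), and the membrane-embedded Atp5k by 0.30 ± 0.10 (limma adjusted p = 0.332). None passed the test.

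The largest differences over the 3 populations in each complex, none of them called, gave this order. In complex I, Ndufb2 (0.30 ± 0.13) and Ndufa2 (0.27 ± 0.17) came after Ndufa11, and Ndufs5 (-0.30 ± 0.45) and Ndufa5 (-0.17 ± 0.07) were lowest. In complex II, Sdhd, Sdhc and Sdha followed Sdhb with 0.12, 0.08 and 0.02. In complex III, Uqcr11 and Uqcr10 both differed by 0.27, with SE of 0.18 and 0.17, and Uqcrc2 was lowest at -0.03. Complex IV had Cox6a1 at 0.23 ± 0.09, Cox5a at 0.17 ± 0.10 and Cox8a at 0.17 ± 0.11, and with Cox7a2l at -0.11 ± 0.08 and Cox7a2 at -0.06 ± 0.12. In complex V, Atp5g3 (0.30 ± 0.09) and Atp5e (0.22 ± 0.19) followed Atp5k, while Atp5s (-0.21 ± 0.13) and Atp5sl (-0.07) were lowest. Of other core subunits, Ndufs8 differed by 0.22 ± 0.08, Atp5b by 0.14 ± 0.08, Ndufs3 by 0.14 ± 0.09, Uqcrfs1 by 0.13 ± 0.10 and Ndufv2 by 0.10 ± 0.09.

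Within a population the difference has no test, since each genotype has 1 library. In stimulated nTregs the median of YAP cKO over WT was 0.32 for members, on the log2(FPKM + 1) scale, against 0.04 over 11105 genes. Of the 79 members with at least 1 FPKM in either library, 68 were positive (86.1%, against 55.2% of all genes). In fresh nTregs the median was 0.04 over 78 members, against 0.00 over all genes, and in naive cells 0.05 against 0.00. By complex the stimulated medians were 0.34, 0.29, 0.42, 0.30 and 0.31 for I to V. Against the all-gene median of the same setting, members stood 0.27 to 0.35 higher in stimulated nTregs, 0.03 to 0.05 higher in fresh nTregs and 0.02 to 0.05 higher in naive cells over the settings tried.

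**Figure D3:**
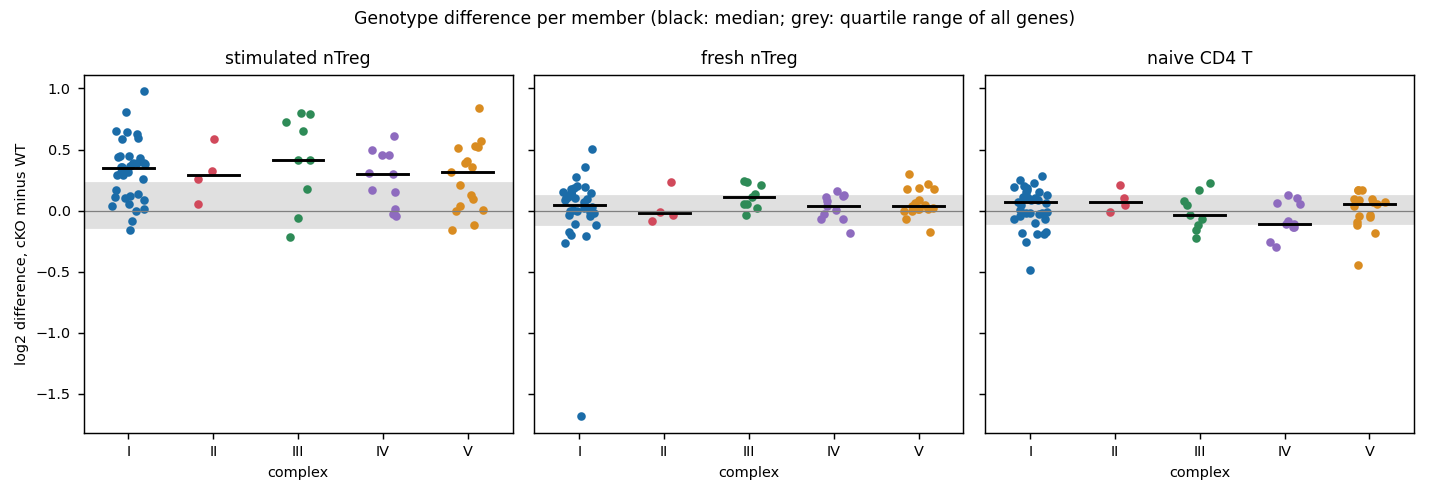
Difference of YAP cKO over WT in log2(FPKM + 1) for the 77 tested members above 0 in every library, by complex and population, with a black bar at the median of the points and a grey band for the quartile range of all genes. In stimulated nTregs most points lie above 0, from -0.22 (Uqcrb) to 0.98 (Ndufs5), and in fresh nTregs and naive cells they scatter around 0, with Ndufs5 at -1.68 in fresh nTregs.

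At least 2-fold differences in FPKM + 1 were rare. In stimulated nTregs 0 of 79 members reached it, where 1.21% of all genes were higher and 0.693% lower. In fresh nTregs 2 of 78 were lower, Ndufs5 and Cox7a1 (all genes: 0.634% higher, 0.395% lower), and in naive cells Cox7a1 alone was higher (all genes: 0.661% higher, 0.536% lower). Both entries of Cox7a1 set about 4 fragments against a library listed at 0. After Ndufs5, the members furthest apart in stimulated nTregs were the short subunits Atp5e (0.84), Ndufa2 (0.81), Uqcr11 (0.80) and Uqcr10 (0.79). Uqcr10 had 156 FPKM in YAP cKO and 89.9 FPKM in WT stimulated nTregs, against 145 and 132 FPKM in YAP cKO and WT fresh nTregs and 131 and 142 FPKM in YAP cKO and WT naive cells.

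Among the catalytic subunits in stimulated nTregs, YAP cKO over WT, Ndufv1 differed by 0.59, Sdhb by 0.59, Cyc1 by 0.65, Uqcrfs1 by 0.41 and Atp5b by 0.31, whereas Ndufs1 differed by 0.00, Sdha by 0.05 and Ndufv2 by -0.08. Cyc1 had 35.4 FPKM in YAP cKO and 22.2 FPKM in WT stimulated nTregs, against 27.2 and 28.0 FPKM in YAP cKO and WT fresh nTregs and 36.0 and 34.0 FPKM in YAP cKO and WT naive cells. The WT stimulated library was thus the lowest of the 6 for Cyc1 and for Atp5e.

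Seen as a response to stimulation, the medians of the genotypes lay on either side of 0 on the scale as deposited. From fresh to stimulated nTregs the 78 members' median was 0.20 in YAP cKO, with 60 positive, and -0.05 in WT, with 34 positive. Over 11224 genes the medians were -0.03 and -0.06, with 5374 and 5119 positive. With equal FPKM sums the members' medians were 0.70 in YAP cKO and 0.58 in WT, and without the short features or with a median-of-ratios scaling 0.19 and 0.03 in WT, so the sign in WT depended on the scale. As deposited, both genotypes were positive for 34 of 78 members and both negative for 18. Another 26 were positive in YAP cKO and negative in WT, and 0 were the reverse. Of all 11224 genes the counts were 4331, 5050, 1043 and 785 in the same order. The signed response was higher in YAP cKO for 64 of 78 members (all genes: 6255 of 11224). Of those 64, 17 were below 0 in both genotypes. By complex the medians were 0.28, 0.12, 0.11, 0.23 and 0.15 in YAP cKO for I to V, against -0.02, -0.15, -0.29, 0.06 and -0.08 in WT. The difference of responses has no replicate and was not tested.

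**Figure D4:**
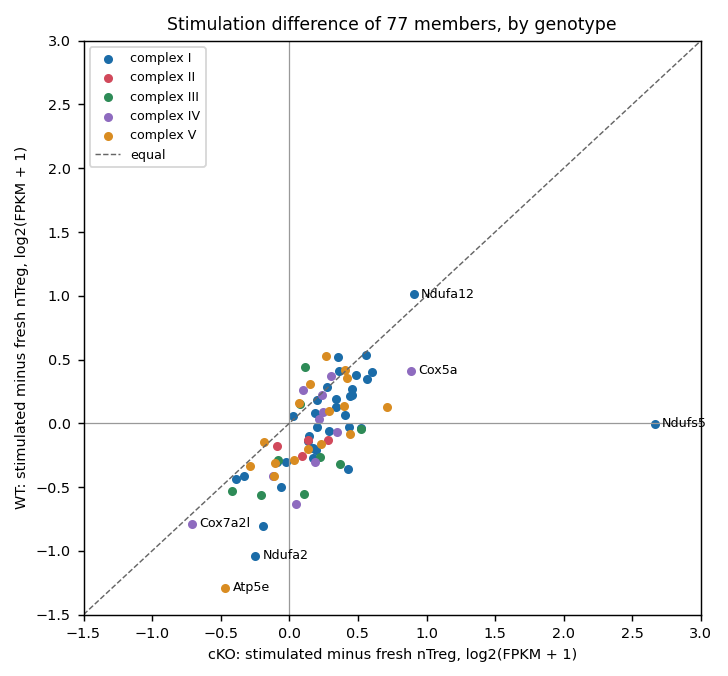
Difference of stimulated over fresh nTregs in YAP cKO (horizontal) and WT (vertical) for the 77 tested members above 0 in every library, log2(FPKM + 1), coloured by complex, with a dashed line of equal response. Most points lie below the line; Ndufa12 (0.91 in YAP cKO, 1.01 in WT) and Cox7a2l (-0.71 and -0.79) lie close to it, and Ndufs5 (2.66 and 0.00) farthest away.

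Transcript length moved with the genotype difference in stimulated nTregs. Members are short, with a median of 760.5 nt against 2796 nt for all genes with a length. YAP cKO over WT, the median in stimulated nTregs was 0.37 for the 50 members of 1000 nt or less and 0.16 for 858 other genes of that length, and 0.29 for the 28 longer members and 0.03 for 10112 longer other genes. By these medians members stood above other genes in both classes, and short genes above long ones. In finer classes the gap was uneven. Members against other genes had 0.57 against 0.26 up to 500 nt (9 members), then 0.35 against 0.16 up to 750 nt (29 members). Up to 1000 nt it was 0.15 against 0.13 (12 members), and up to 1500 nt 0.29 against 0.11 (11 members). Up to 2500 nt it was 0.29 against 0.07 (13 members), and up to 4000 nt 0.05 against 0.02 (3 members). Over 4000 nt it was 0.51 against -0.02 (1 member). In fresh nTregs the members' medians were 0.07 and 0.02 for short and long transcripts, against 0.06 and -0.0045 for other genes. All 7 proliferation genes were also higher in YAP cKO than in WT stimulated nTregs, with a median of 0.65, and 6 of 7 were higher in fresh nTregs, with a median of 0.47 where that of the members was 0.04. Top2a, which untangles replicated DNA, was called over the 3 populations (0.72 ± 0.09, limma adjusted p = 0.0433). The part of length or proliferation in the members' difference was not tested.

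**Figure D5:**
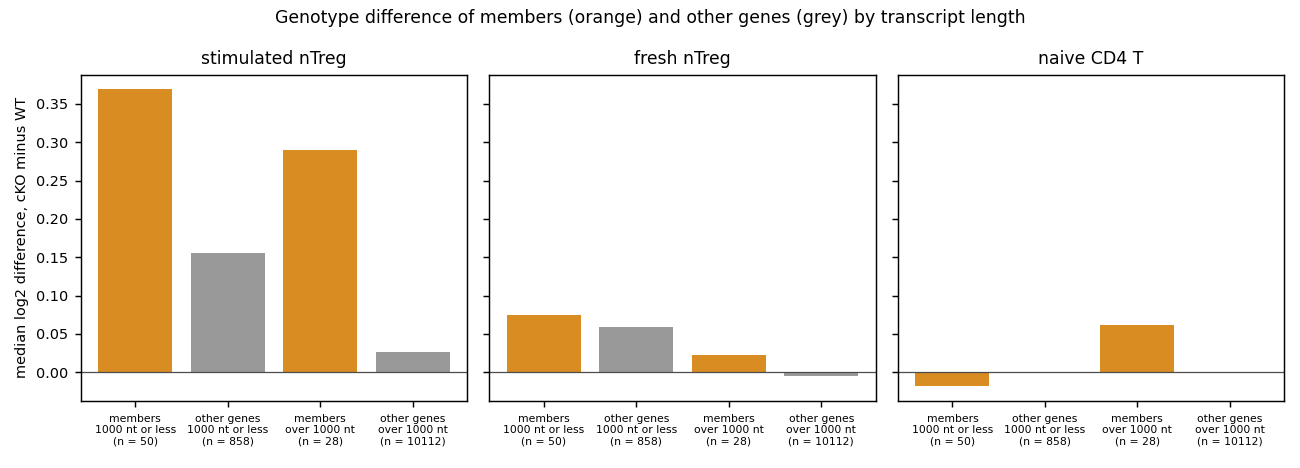
Median difference of YAP cKO over WT in log2(FPKM + 1) for members (orange) and other tested genes (grey) with transcripts of at most or over 1000 nt, by population. In stimulated nTregs the bars stand at 0.37 and 0.16 for short and 0.29 and 0.03 for longer transcripts. In naive cells none exceeds 0.062.

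Genes that build or feed the complexes were also called in both directions. All counts of these lists are on the scale as deposited. On it 22.5% of all genes rose and 27.3% fell in stimulated over fresh nTregs. With equal FPKM sums 59.2% of all genes rose and 8.99% fell. As deposited, 16.5% of all genes were higher and 14.7% lower in fresh nTregs than in naive cells. Of 45 assembly factors tested, 6 rose and 7 fell in stimulated over fresh nTregs, with Ndufaf1 (0.59 ± 0.12, limma adjusted p = 0.00937) and Ndufaf4 (0.55 ± 0.11, limma adjusted p = 0.00972), both of complex I, highest. The lowest were the complex II factors Sdhaf1 (-1.80 ± 0.08, limma adjusted p = 6.96e-05) and Sdhaf4 (-1.01 ± 0.22, limma adjusted p = 0.0109). Sdhaf1 had 20.5 FPKM in YAP cKO and 20.8 FPKM in WT stimulated nTregs, against 77.0 FPKM in YAP cKO and 71.8 FPKM in WT fresh nTregs, a larger change than in any of the 4 complex II subunits. Fresh over naive, 4 assembly factors were higher and 6 lower, with the copper chaperone Cox17 (0.68 ± 0.13) and Ndufaf2 (0.64 ± 0.09) highest and Cox10, which makes heme O for complex IV, lowest (-0.81 ± 0.11).

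Of 19 electron carrier, ubiquinone synthesis and nucleotide exchange genes, 10 rose and 2 fell on stimulation (all genes: 22.5% and 27.3%). Coq3 and Coq4 of ubiquinone synthesis rose by 0.96 ± 0.17 and 0.79 ± 0.19, while Coq8a and the phosphate carrier Slc25a3 fell by 0.89 ± 0.14 and 0.36 ± 0.08 (log2, SE, all called by limma). Fresh over naive, 3 were higher and 3 lower (all genes: 16.5% and 14.7%). Highest was Atpif1, the inhibitor of ATP synthase hydrolysis, with 58.4 FPKM in YAP cKO and 48.1 FPKM in WT fresh nTregs, against 22.2 FPKM in YAP cKO and 23.7 FPKM in WT naive cells (1.17 ± 0.12, limma adjusted p = 0.0011), followed by Etfb of the electron transfer flavoprotein (0.78 ± 0.16). Coq7 and Pdss2, both of ubiquinone synthesis, were lowest (-0.94 ± 0.16 and -0.58 ± 0.13).

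Of 18 TCA cycle genes, 3 rose and 2 fell on stimulation (all genes: 22.5% and 27.3%). In fresh nTregs 1 was higher and 3 lower than in naive cells (all genes: 16.5% and 14.7%). The NADP-dependent Idh2 had 7.98 and 6.22 FPKM in YAP cKO and WT stimulated nTregs, 17.3 and 13.5 FPKM in YAP cKO and WT fresh nTregs, and 43.9 and 39.0 FPKM in YAP cKO and WT naive cells, and was lower in both comparisons (-1.02 ± 0.09 and -1.38 ± 0.09). Suclg2 rose by 0.34 and Ogdh fell by 0.48 on stimulation, and Fh1 was higher by 0.29 and Dlst lower by 0.34 on the log2 scale in fresh nTregs than in naive cells.

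Of 18 regulators of mitochondrial biogenesis, 3 rose and 5 fell on stimulation (all genes: 22.5% and 27.3%). In fresh nTregs 1 was higher and 4 lower than in naive cells (all genes: 16.5% and 14.7%). Myc had 87.0 FPKM in YAP cKO and 93.1 FPKM in WT stimulated nTregs, against 27.1 FPKM in YAP cKO and 21.7 FPKM in WT fresh nTregs (1.85 ± 0.16, limma adjusted p = 0.000503), and the mitochondrial helicase gene Twnk rose by 0.51 ± 0.13. The nuclear receptor gene Esrra and Polg2, an accessory subunit of the mitochondrial DNA polymerase, fell by 0.62 ± 0.12 and 1.12 ± 0.11. Fresh over naive, Gabpb1 was higher (0.55 ± 0.09), and Pprc1 and Tfb2m were lowest (-0.63 ± 0.10 and -0.52 ± 0.09). None of these 4 lists had a gene called between genotypes in limma; their medians of YAP cKO over WT in stimulated nTregs were 0.09, 0.19, 0.07 and -0.01, against 0.32 for the subunits.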

How the data were processed

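Values are FPKM that the authors made with Cuffnorm, 1 column per library; FastQC, TopHat, Cuffdiff and the mm10 build are named per the submitters' processing notes, without versions. Libraries were rRNA-depleted and strand-specific, from 322 ng of RNA with 12 PCR cycles, per the labels' protocols. How fragments matching several transcripts were assigned is not given in the sources used here. The 32547 transcripts were summed to 24011 genes; 3495 had no deposited symbol and were named by RefSeq accession where possible, which added 11 transcripts of 5 members. No value column was left unused.

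A limma fit (version 3.58.1, R 4.3.3, variance trend, terms for population and genotype, log2(FPKM + 1)) was made over 11224 genes with at least 1 FPKM in at least 2 libraries, with Benjamini-Hochberg adjustment. Each group has 1 library, so the residual spread, with 2 residual degrees of freedom, lies between libraries that differ in population and genotype, not between mice. The steps were tested on simulated data with an equal and independent spread for every gene. In the data the SE differed between genes, so that test checks the steps and not how reliable the calls are. Within a population only values are given, for genes with at least 1 FPKM in either library. Depth is not given: the worth of 1 fragment on 1 kb was estimated from low values at 0.110 to 0.143 FPKM, and the members' median is about 616 fragments.

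The members, the other gene lists and the markers were chosen with earlier results of these data known. Named genes are the core subunits, the isoform families, and the 3 highest and 2 lowest members of each complex in each comparison; of each list, the 2 highest and 2 lowest called. Some genes that this rule names are not reported here. Other genes are named where they were called, or were chosen after their values were seen. Promoters are those of RefSeq (GRCm38.p6); the Ndufs5 transcripts and transcript lengths are from GENCODE on GRCm38. Alternatives were other pseudocounts, filters, scalings, models and transcript choices, each library left out, and, added after seeing the data, deposited symbols only.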

Additional observations from a re-analysis of the deposited data

Results flagged for a closer look

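The response to stimulation, stimulated over fresh nTregs, had a median on opposite sides of 0 in the 2 genotypes. Over all members it was 0.20 in YAP cKO and -0.053 in WT, in complex I 0.28 and -0.018, in complex II 0.12 and -0.15, in complex III 0.11 and -0.29, and in complex V 0.15 and -0.084, all on the log2(FPKM + 1) scale as deposited. In complex IV both medians were above 0. With 1 library per group the difference between genotypes was not tested.

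Ndufs5 differed in direction between populations, with YAP cKO over WT at 0.98 in stimulated nTregs, -1.68 in fresh nTregs and -0.19 in naive cells. Summed with its near copy Ndufs5-ps, the differences were 1.64, -0.05 and 0.60 in the same order. The copy held 73.2% of the pair's FPKM in YAP cKO fresh nTregs, so the values of Ndufs5 are uncertain. Ndufs5 rests on about 19.8 fragments in YAP cKO fresh nTregs, and the difference between populations was not tested.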

How the results depend on the processing

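No paired analysis was possible because each group has 1 library. Of 33 calls on single members in the population comparisons, 1 (Ndufa12) remained under every setting and 32 did not; the cause was not tested. Between genotypes 0 members were called under every setting run. Stimulated over fresh nTregs, 67 members were higher and 0 lower with equal FPKM sums (median 0.68; all genes 59.2% higher, median 0.47), and 37 and 3 without the short features (median 0.30; all genes 32.5% higher, median 0.12). The count of lower members was 4 without a filter, 5 without a variance trend and 4 without the genotype term. Of all genes 12.2%, 26.3% and 24.7% were lower, in the same order. With 1 library left out, 2 to 34 were higher and 1 to 23 lower, with medians of -0.076 to 0.23. With equal FPKM sums Atp5sl (0.23), Ndufa6 (0.16), Ndufb11 (0.068), Ndufv3 (0.20), Uqcrfs1 (0.18) and Uqcrh (0.10) turned positive. Fresh over naive, 0 were higher and 2 lower without a filter (all genes: 6.42% and 3.87%). Under both equal-sum scalings 18 were higher and 1 lower, with medians of 0.18 and 0.18 (all genes: 24.3% and 26.3% higher, 5.86% and 6.32% lower). There were 0 and 3 without a trend (all genes: 15.7% and 12.6%). A fit of the 2 populations alone gave 10 and 15 (all genes: 20.9% and 23.1%). Median-of-ratios scaling gave 5 higher (all genes: 17.9%) and the dominant transcript alone 2 lower (all genes: 10.1%). With 1 library left out, the members' median ran from -0.094 to 0.064, and that of all genes from -0.038 to -0.012. Members 2-fold apart between genotypes numbered 1 in stimulated nTregs with pseudocount 0.1, equal sums, the dominant transcript, or Ndufs5 summed with its copy. In fresh nTregs they numbered 1 with pseudocount 5, the filter at 5 FPKM, or the summed pair. In naive cells they numbered 0 with pseudocount 5, that filter or either equal-sum scaling, and 2 with deposited symbols only. The share of all genes 2-fold apart under these settings is not given here, so nothing is read from these counts. The response median was 0.70 in YAP cKO and 0.58 in WT with equal sums, and 0.19 in WT without the short features. Where a library is left out, the lone library of its population is assumed to vary like the others. Depth limits 6 tested members, which have under 100 fragments in a library.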
